A study of Homo sapiens with 4 samples.

Results

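The genes described here encode the enzymes that attach palmitate to proteins and those that remove it, 31 genes taken by symbol from the 23444 entries of the deposited count and FPKM tables, in which all 31 were found. They comprise 23 palmitoyltransferases of the ZDHHC family, the accessory subunit GOLGA7 and 7 thioesterases. The RNA came from U87-MG cells, a long-established line derived from a human glioblastoma. In 2 libraries, named shMAGED2, MAGED2 (a gene of the melanoma antigen family) was knocked down, and 2 libraries, named shCON, carried the negative control. The labels do not agree on the perturbation: the series design speaks of stable MAGED2 knockdown, whereas the treatment text names hairpins (GIPZ shRNA plasmids) directed at ZDHHC15, one of the genes described here, and a scrambled hairpin, introduced by lipofection and harvested after 36 h. The sources used here do not give hairpin sequences or the number of clones. No label says that replicates came from separate cultures, so each p-value reflects the spread among these 4 samples alone, and that spread may be technical.

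Protein S-palmitoylation is the attachment of a fatty acid, usually palmitate, to a cysteine through a thioester bond. It tethers soluble proteins such as RAS and SRC-family kinases to membranes and sorts membrane proteins, and unlike most lipid modifications it is reversible. The transferases are multi-pass membrane proteins of the endoplasmic reticulum, Golgi and plasma membrane, named after the Asp-His-His-Cys (DHHC) motif whose cysteine accepts palmitate from palmitoyl-CoA before passing it on. Thioesterases of the cytosol (LYPLA1, LYPLA2 and the ABHD17 proteins) reverse the modification, and those of the lysosome (PPT1 and PPT2) act on thioesters during protein breakdown. ZDHHC15 is best known for palmitoylating the synaptic scaffold PSD-95 in neurons, and other enzymes of the family have been studied in glioma for their action on growth factor receptors and RAS.

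The motif that defines the transferases is shown for the 4 that passed the test described further on and for ZDHHC15, so that the catalytic codons of the gene named in the treatment text can be set beside them. The stretches are coding DNA from GENCODE 29 transcripts, 5′ to 3′ on the coding strand, and capitals mark the 4 codons of the DHHC motif with 24 bases on each side.
ZDHHC12: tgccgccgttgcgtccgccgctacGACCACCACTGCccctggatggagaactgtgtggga
ZDHHC16: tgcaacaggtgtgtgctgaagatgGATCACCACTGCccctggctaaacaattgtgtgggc
ZDHHC1: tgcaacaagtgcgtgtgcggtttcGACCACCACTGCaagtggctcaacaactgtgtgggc
ZDHHC24: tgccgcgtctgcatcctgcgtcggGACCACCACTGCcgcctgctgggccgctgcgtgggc
ZDHHC15: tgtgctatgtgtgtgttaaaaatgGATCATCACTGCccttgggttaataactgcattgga
On hg38 the capitals lie at chr9:128721752-128721763 in exon 4 of 5 (ZDHHC12, minus strand), chr10:97452911-97452922 in exon 5 of 11 (ZDHHC16, plus strand), chr16:67399393-67399404 in exon 5 of 11 (ZDHHC1, minus strand), chr11:66543891-66543902 in exon 2 of 3 (ZDHHC24, minus strand) and chrX:75429953-75429964 in exon 6 of 12 (ZDHHC15, minus strand). An in-frame run of DHHC codons was found in 22 of the 23 ZDHHC genes, in each case within 1 exon. The exception was ZDHHC13, which is known to carry a variant of the motif. ZDHHC1, ZDHHC12 and ZDHHC24 share the form GACCACCACTGC, and ZDHHC15 and ZDHHC16 use other codons for the same residues.

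Total counts ran from 28673774 to 36234336 per library, and a gene with 0 counts could still have been present at up to 0.083 to 0.105 CPM. That limit is 3 counts relative to the unscaled total and covers counting error only. All other CPM values are counts relative to the TMM-scaled library total over the genes tested. MAGED2 was low in both libraries labelled as its knockdown, with 526 and 795 counts against 6090 and 5225 in shCON, or 11.2% of the control level (log2 change -3.16, SE 0.13, edgeR adjusted p = 0.000654). Of 10 glial and glioma markers, VIM, CD44 and CHI3L1 were high (7577 to 8802, 883 to 1244 and 501 to 782 CPM), SLC1A3 was at 24.8 to 29.7 CPM and GFAP at 0.951 to 3.03 CPM, S100B and SOX2 were at or under 0.401 CPM, and AQP4 was at 0 in every library. In the knockdown NES rose (log2 change 1.88, edgeR adjusted p = 0.002), and OLIG2 (-1.45, 0.0158) and CHI3L1 (-0.45, 0.0447) fell. The 5 epithelial markers summed to between 1.81 and 3.97 CPM. The 4 endothelial ones summed to 12.2 to 14.0 CPM in shCON and 8.47 to 9.64 CPM in shMAGED2. Of the endothelial markers KDR fell (log2 change -0.68, edgeR adjusted p = 0.0429). The 5 neuronal ones summed to 178 to 194 CPM in shCON and 256 to 286 CPM in shMAGED2. Among the neuronal markers TUBB3 rose (131.8 to 242.7 CPM in the mean, adjusted p = 0.0049), MAP2 fell (41.6 to 10.7 CPM, adjusted p = 0.00715), and RBFOX3 stayed under 0.6 CPM. The part of these shifts in the results that follow was not tested. The 6 haematopoietic markers summed to 380 to 603 CPM, nearly all of it CD68, a lysosomal protein that many cultured lines make, with AIF1 at 0. In bulk RNA a smaller number of cells and less RNA per cell cannot be told apart.

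ZDHHC15 itself, together with ZDHHC19 and ZDHHC22, had 0 counts in all 4 libraries. A change of ZDHHC15 by the hairpin that the treatment text names was therefore not detectable at this depth, and control cells held no more of its RNA than the limit above. ZDHHC22 is mainly known from the nervous system and ZDHHC19 from testis. The remaining 28 genes had counts in every library.

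In control cells most of the machinery was expressed at moderate levels. Levels of different genes are compared in FPKM, the deposited values per gene length. LYPLA1, the acyl-protein thioesterase also called APT1, was highest of the 31 with 36.4 and 36.7 FPKM in the shCON libraries. PPT1, the lysosomal enzyme whose loss causes infantile neuronal ceroid lipofuscinosis, followed with 32.9 and 35.4 FPKM, and the RAS depalmitoylase ABHD17A with 30.0 and 31.0 FPKM. In all, 9 genes had a mean over 25 FPKM, 8 lay between 10 and 25, 4 between 5 and 10, 5 between 1 and 5, and 2 between 0 and 1. The libraries of LYPLA1 and PPT1 did not overlap those of the next gene in the order. Neighbours from ABHD17A to ZDHHC3, and from ZDHHC6 to LYPLA2, overlapped in their library values.

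Among transferases the control levels were led by Golgi enzymes. ZDHHC7 (30.9 and 29.8 FPKM) and its close relative ZDHHC3 (28.8 and 28.1 FPKM) are Golgi enzymes with broad substrate ranges that include G protein alpha subunits. ZDHHC6 of the endoplasmic reticulum (26.4 and 28.0 FPKM) and ZDHHC5 of the plasma membrane (27.6 and 25.6 FPKM) were next. The lowest detected transferases were ZDHHC14, with 1.08 and 0.712 FPKM, and ZDHHC11, with 0.274 and 0.385 FPKM. ZDHHC11 has a near-identical copy, ZDHHC11B, which had 0 counts in 3 libraries and 5 in shMAGED2 replicate 2, so that the split of reads between the copies is uncertain.

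**Figure D1:**
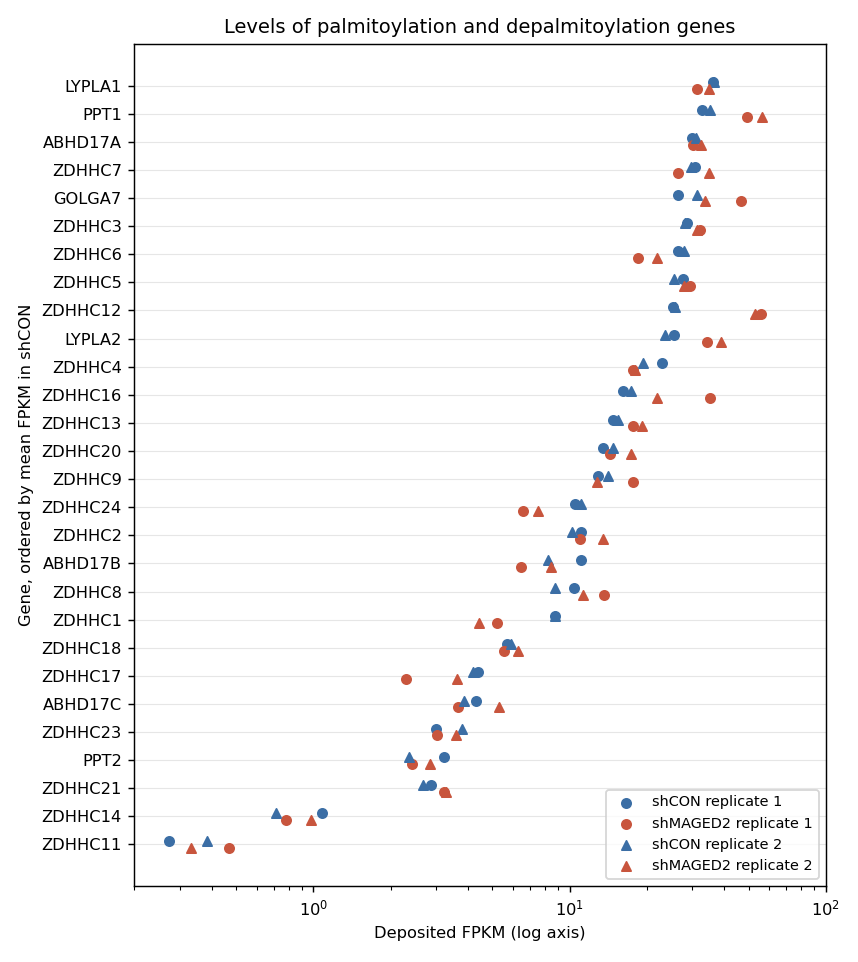
Deposited FPKM (log axis) of the 28 detected genes in each of the 4 libraries, ordered by the shCON mean; circles are replicate 1, triangles replicate 2, blue shCON and red shMAGED2. ZDHHC12 moves from 25.3 and 25.9 FPKM to 55.8 and 52.8 FPKM, and LYPLA1 from 36.4 and 36.7 FPKM to 31.5 and 35.0 FPKM.

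The comparison of shMAGED2 with shCON addressed how the palmitoylation machinery differed when MAGED2 was low. With a threshold of 0.05 on the adjusted p (edgeR quasi-likelihood test, Benjamini-Hochberg over 15293 genes), 4 of the 28 genes tested were higher and 2 were lower. The palmitoyltransferases ZDHHC12 and ZDHHC16 and the thioesterases PPT1 and LYPLA2 rose, and the palmitoyltransferases ZDHHC1 and ZDHHC24 fell. These 6 make up 21.4% of the 28, against 23.9% called over all genes tested, 12.3% rising and 11.6% falling, so the share called was near the background. The median log2 change (shMAGED2 minus shCON) was 0.18 over the 28 genes and 0.00284 over all genes, and 19 of the 28 lay above 0 (50.3% of all genes). At least a 2-fold change was found for 1 of the 28 and for 2362 of the 15293 genes tested. The library values of the groups did not overlap for 20 of the 28, against 66.0% of all genes. With upper-quartile scaling 3 rose and 3 fell, since ZDHHC16 missed the threshold and ZDHHC6 passed it.

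These counts depended on which libraries were used. Without shCON replicate 1 only ZDHHC12 passed (1 of 28, with 6.96% of all genes called), and without shCON replicate 2 ZDHHC12 and PPT1 passed (2 of 28, 7.97% of all genes). Without shMAGED2 replicate 1, 9 rose and 3 fell (41.1% of all genes called), and without shMAGED2 replicate 2, 11 rose and 4 fell (47.0%). In each such fit the lone library was assumed to vary like the other group. The ratio of the higher to the lower library of a group had a median of 1.07 over the 28 genes in shCON and of 1.13 in shMAGED2, against 1.08 and 1.19 over all genes.

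**Figure D2:**
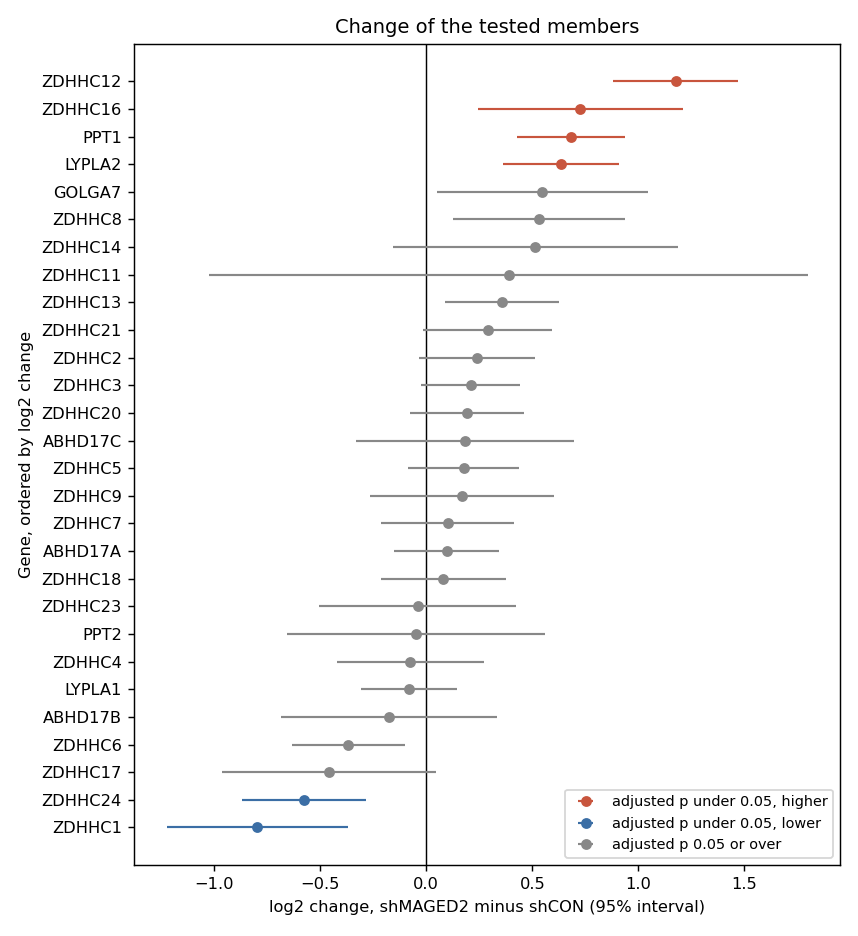
Log2 change (shMAGED2 minus shCON) of the 28 tested genes with 95% intervals from the edgeR fit; red points rose, blue points fell and grey points did not pass an adjusted p of 0.05. ZDHHC12 stands highest at 1.18 and ZDHHC1 lowest at -0.80, and 22 grey points lie between -0.46 and 0.55.

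ZDHHC12 changed more than any other of the 28. It is a Golgi enzyme of small size, for which the inflammasome sensor NLRP3 and the tight junction protein claudin-3 are known substrates. It had 27.3 and 28.1 CPM in shCON and 66.6 and 58.7 CPM in shMAGED2. Both shMAGED2 libraries lay far above both controls, and the mean went from 27.7 ± 0.58 to 62.6 ± 5.5 CPM (SD, n = 2). The log2 change was 1.18 (SE 0.12, 2.26-fold; edgeR, Benjamini-Hochberg adjusted p = 0.00236), and it passed in all 15 alternative fits, with changes of 1.05 to 1.26. By mean FPKM it went from the 9th place among the 31 genes in shCON to the 1st in shMAGED2, where its libraries (55.8 and 52.8 FPKM) overlapped those of PPT1 (49.1 and 56.2 FPKM). The gene (ENSG00000160446; chromosome 9, 128720869 to 128724127, minus strand, hg38) shares 50 exonic bases, 1.9% of its own, with PKN3 on the opposite strand. PKN3, a protein kinase, also rose, from 14.5 ± 0.033 to 25.6 ± 0.51 CPM (SD, n = 2), with a log2 change of 0.82 and an edgeR adjusted p of 0.00977.

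ZDHHC16 rose as well, with a wide spread in the knockdown. This enzyme of the endoplasmic reticulum, also called APH2, palmitoylates ZDHHC6 and so stands upstream of another transferase. Its values were 28.3 and 28.7 CPM in shCON against 56.3 and 38.2 CPM in shMAGED2. The groups did not overlap, but the shMAGED2 libraries differed 1.47-fold from each other. The log2 change of 0.73 (SE 0.20) had an edgeR adjusted p of 0.0454, and it was 0.42 without shMAGED2 replicate 1 and 0.98 without shMAGED2 replicate 2. The call ended with upper-quartile factors (0.0524), limma-voom (0.0561) and both fits to log2 FPKM (0.0795 and 0.0816), and without shCON replicate 1 (0.171) or replicate 2 (0.148). ZDHHC16 (ENSG00000171307) lies on chromosome 10 from 97446131 to 97457370, plus strand, and shares no exonic base with another annotated gene.

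Its known target ZDHHC6, which modifies calnexin and, together with the selenoprotein SELENOK, calcium channels and the fatty acid transporter CD36, did not pass. ZDHHC6 had 58.9 and 62.6 CPM in shCON and 45.2 and 48.9 CPM in shMAGED2, a log2 change of -0.37 (95% interval -0.63 to -0.10; edgeR adjusted p = 0.0578). Both knockdown libraries were lower, and ZDHHC6 passed under 5 of 15 alternatives, among them DESeq2 (0.0462), upper-quartile factors (0.042) and the filter of 5 CPM (0.0429). SELENOK, which is not among the 31, fell from 35.7 and 34.5 CPM to 18.2 and 25.2 CPM (log2 change -0.69, SE 0.18, edgeR adjusted p = 0.0409). Whether ZDHHC6 and SELENOK differ in their response was not tested.

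ZDHHC1 fell. It is an enzyme of the endoplasmic reticulum known as a partner of the DNA-sensing adaptor STING. It had 19.9 and 19.8 CPM in shCON and 12.8 and 10.1 CPM in shMAGED2, so that both knockdown libraries were below both controls. The log2 change was -0.80 (SE 0.17; edgeR adjusted p = 0.0249), or 57.5% of the control level. Without shCON replicate 1 the change was -0.80 with an adjusted p of 0.142, and without shCON replicate 2 it was -0.80 with 0.125. The gene (ENSG00000159714) spans chromosome 16 from 67394152 to 67416833 on the minus strand and shares no exonic base with another gene.

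ZDHHC24, one of the least studied transferases, fell too. Its levels were 46.9 and 50.1 CPM in shCON and 30.8 and 34.1 CPM in shMAGED2, again without overlap, or 67.0% of control. The log2 change was -0.58 (SE 0.12; edgeR adjusted p = 0.0207), with adjusted p-values of 0.138 and 0.209 without shCON replicate 1 and 2. ZDHHC24 (ENSG00000174165; chromosome 11, 66520637 to 66546238, minus strand) shares 759 exonic bases, 12.1% of its own, with BBS1 on the opposite strand, and whether the counting used strand is not stated in the labels. BBS1, a component of the ciliary BBSome, was at 47.1 and 49.5 CPM in shCON and 55.8 and 38.1 CPM in shMAGED2 (edgeR adjusted p = 0.89).

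**Figure D3:**
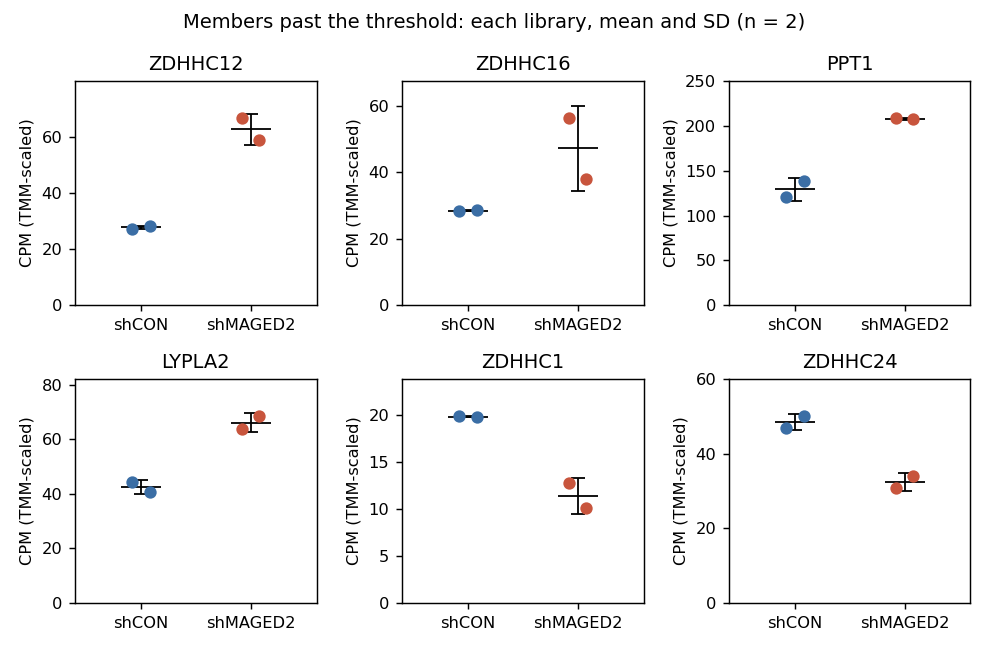
TMM-scaled CPM of the 6 genes past the threshold, 1 point per library, with the mean and SD (n = 2) in black; each axis starts at 0. In every panel both shMAGED2 points lie on 1 side of both shCON points, with the widest spread for ZDHHC16 in shMAGED2 (56.3 and 38.2 CPM).

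Promoter stretches upstream of the RefSeq start (GRCh38.p14) are printed for the genes with the largest rise and the largest fall. Both are given 5′ to 3′ on the strand of the gene, and capitals mark matches to the motifs searched. The ZDHHC1 stretch lies wholly inside the GENCODE span of that gene, 67394152 to 67416833 on the minus strand. RefSeq thus starts ZDHHC1 further downstream than GENCODE does, and which start these cells use was not tested.
ZDHHC12, chr9:128724128-128724377, minus strand: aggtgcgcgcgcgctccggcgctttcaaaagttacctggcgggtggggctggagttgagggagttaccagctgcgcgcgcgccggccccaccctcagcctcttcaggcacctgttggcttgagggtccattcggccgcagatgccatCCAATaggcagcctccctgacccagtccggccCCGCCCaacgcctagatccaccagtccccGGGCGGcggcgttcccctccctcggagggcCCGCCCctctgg
ZDHHC1, chr16:67416478-67416727, minus strand: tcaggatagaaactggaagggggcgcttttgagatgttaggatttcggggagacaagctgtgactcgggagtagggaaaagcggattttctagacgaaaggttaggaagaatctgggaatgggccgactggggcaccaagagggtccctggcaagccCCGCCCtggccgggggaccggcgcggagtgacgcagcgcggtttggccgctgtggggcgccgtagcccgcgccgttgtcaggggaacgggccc
The motifs were the GC box GGGCGG, the CCAAT box CCAAT, the E-box CACGTG, the CRE core TGACGT, the ETS core CCGGAAG, the NRF1 core and the E2F forms TTTGGCGC and TTTCCCGC, each on both strands of the 300-base window (250 bases before the start and 50 from it on); no matches overlap among those shown in capitals. ZDHHC12 held a CCAAT box at -103 and GC boxes at -71, -42 and -12 from its start (position 0), with an ETS core at 6, downstream of the stretch shown. ZDHHC1 held GC boxes at -93 and at 39, the latter also downstream. Among the 23 of 31 genes matched in the RefSeq table, 18 (78.3%) held a GC box, against 45.0% of 35116 promoters, and their median GC content was 66.0%, against 58.7%. For each of the 23 genes the first matching entry was used. The 35116 are all entries of that table, not reduced to genes and not matched in gene type or expression, so the sets are unlike. CCAAT was found in 6 of the 23 (26.1%, against 34.6% of all), among them ZDHHC12 and ZDHHC16. The ETS core was found in 6 (26.1%, against 10.3%), among them LYPLA2 and ZDHHC12, the CRE core in 4 (17.4%, against 8.0%), and CACGTG in 2 (8.7%, against 7.3%), one of which was ZDHHC16. The NRF1 core and both E2F forms were in 0 of the 23, where 1.2%, 0.7% and 1.6% of all promoters held them.

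Of the remaining transferases, 16 were tested and did not pass. ZDHHC8, an enzyme related to ZDHHC5 whose gene lies in the 22q11 deletion region, had 45.4 and 42.9 CPM in shCON and 73.7 and 54.0 CPM in shMAGED2, without overlap. Its log2 change was 0.53 (95% interval 0.12 to 0.94; edgeR adjusted p = 0.0671), and it passed under 5 of 15 alternatives, among them DESeq2 (0.0258) and no count filter (0.0327). ZDHHC13, which together with ZDHHC17 carries ankyrin repeats, had 36.0 and 38.1 CPM against 46.9 and 48.0 CPM, a log2 change of 0.36 (95% interval 0.09 to 0.63; adjusted p = 0.0634). ZDHHC17, the huntingtin-interacting enzyme HIP14, had 22.5 and 22.1 CPM in shCON and 13.1 and 19.2 CPM in shMAGED2, a log2 change of -0.46 (95% interval -0.96 to 0.05; adjusted p = 0.162). In all 3 genes the libraries of the groups did not overlap, upward for ZDHHC8 and ZDHHC13 and downward for ZDHHC17. Of all genes tested, 33.0% were apart upward and 33.0% downward.

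The enzymes of the plasma membrane and endosomes did not pass with all libraries. ZDHHC5 had 130 and 121 CPM in shCON and 151 and 133 CPM in shMAGED2 (log2 change 0.18, 95% interval -0.08 to 0.44), and ZDHHC20, which palmitoylates the EGF receptor, had 71.9 and 77.7 CPM against 80.7 and 90.1 CPM (0.19, interval -0.07 to 0.46). ZDHHC2, an enzyme of endosomes and the plasma membrane that acts on the receptor CKAP4, was at 71.7 and 66.4 CPM against 76.6 and 86.6 CPM (0.24, interval -0.03 to 0.51). ZDHHC21, known for the kinase FYN, was at 26.8 and 25.03 CPM against 32.5 and 30.8 CPM (0.29, interval -0.01 to 0.59). In these 4 genes both shMAGED2 libraries lay above both shCON libraries, as in 33.0% of all genes tested, and the edgeR adjusted p-values were 0.146 to 0.281. ZDHHC2 and ZDHHC20 passed without shMAGED2 replicate 1 (0.33 and 0.27 on the log2 scale), and ZDHHC5 and ZDHHC21 without shMAGED2 replicate 2 (0.26 and 0.33).

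The leading Golgi enzymes also missed the threshold with all libraries. Without shMAGED2 replicate 1 and without replicate 2 the log2 change was 0.17 and 0.25 for ZDHHC3, and 0.25 and -0.06 for ZDHHC7. ZDHHC3 had 79.3 and 77.7 CPM in shCON and 93.2 and 88.4 CPM in shMAGED2 (log2 change 0.21, 95% interval -0.02 to 0.44), and ZDHHC7 101.5 and 95.5 CPM against 94.5 and 116.8 CPM (0.10, interval -0.21 to 0.42), where the groups overlapped. ZDHHC18, another Golgi enzyme, was at 29.1 and 30.3 CPM against 30.5 and 32.4 CPM (0.08, interval -0.21 to 0.37). ZDHHC4, with 30.8 and 26.02 CPM in shCON and 25.98 and 27.9 CPM in shMAGED2, and ZDHHC23, which binds neuronal nitric oxide synthase, with 13.7 and 17.5 CPM against 13.9 and 16.4 CPM, overlapped between the groups (log2 changes of -0.08 and -0.04). ZDHHC14 and ZDHHC11 were too low for a narrow interval: ZDHHC14 had 101 and 106 counts against 152 and 152 (log2 change 0.51, interval -0.16 to 1.19), and ZDHHC11 19 and 20 counts against 29 and 23 (0.39, interval -1.02 to 1.80). For ZDHHC14 the tables differ: its FPKM values of 1.08 and 0.712 in shCON and 0.784 and 0.978 in shMAGED2 overlapped between the groups, and its counts per unit of FPKM varied 2.28-fold between libraries, after scaling to the library medians.

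RAS proteins are palmitoylated by ZDHHC9 together with GOLGA7, a Golgi protein that stabilises the enzyme. ZDHHC9 had 58.7 and 64.9 CPM in shCON and 81.4 and 57.7 CPM in shMAGED2 (log2 change 0.17, 95% interval -0.27 to 0.60; edgeR adjusted p = 0.532), so that shMAGED2 replicate 1 was the highest and replicate 2 the lowest of the 4 libraries. GOLGA7 had 52.5 and 62.7 CPM in shCON and 100.4 and 68.1 CPM in shMAGED2. The groups did not overlap for GOLGA7, and its log2 change of 0.55 (95% interval 0.05 to 1.04) had an edgeR adjusted p of 0.104 and passed with DESeq2 (0.0424). Without shMAGED2 replicate 2 both passed (ZDHHC9 0.40, adjusted p 0.000225, and GOLGA7 0.80, adjusted p 2.54e-06), while without shMAGED2 replicate 1 ZDHHC9 stood at -0.10 (0.415).

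A list of 8 partners and further thioesterases outside the 31 had 7 genes tested, of which 0 rose and 2 fell, SELENOK and GOLGA7B (28.6%, against 23.9% of all genes), with a median log2 change of -0.29. GOLGA7B, the paralogue of GOLGA7 that partners ZDHHC5, fell from 37.1 and 36.9 CPM to 19.7 and 22.5 CPM. Its log2 change was -0.81 (SE 0.13, edgeR adjusted p = 0.00993), with both knockdown libraries well below the controls. A test of the difference between the paralogues was not run.

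Among thioesterases, 2 of 7 rose and 0 fell (28.6% called, against 23.9% of all genes, 12.3% rising and 11.6% falling), and the class median was 0.10 on the log2 scale. PPT1 had 120.6 and 138.6 CPM in shCON and 208.6 and 207.5 CPM in shMAGED2. The knockdown libraries were almost equal and well above the controls, and the log2 change was 0.68 (SE 0.10, 1.61-fold; edgeR adjusted p = 0.00831). It passed in 14 of 15 alternative fits and missed without shCON replicate 1 (0.58, adjusted p 0.139). PPT1 (ENSG00000131238; chromosome 1, 40071461 to 40097727, minus strand) shares 1189 exonic bases, 23.4% of its own, with CAP1 on the opposite strand. CAP1, an actin regulator, had 380.5 and 351.3 CPM in shCON and 471.9 and 433.5 CPM in shMAGED2 (log2 change 0.31, SE 0.10, edgeR adjusted p = 0.0675), and reads of the shared stretch cannot be told apart unless the counting used strand.

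LYPLA2 (APT2), the cytosolic thioesterase closest to LYPLA1, had 44.4 and 40.7 CPM in shCON and 63.6 and 68.5 CPM in shMAGED2. The groups were well apart, with a log2 change of 0.63 (SE 0.11, 1.55-fold; edgeR adjusted p = 0.0127). The adjusted p was 0.1002 without shCON replicate 1 and 0.159 without shCON replicate 2. LYPLA2 (ENSG00000011009) lies on chromosome 1 from 23790970 to 23795539, plus strand, with no exonic base in another gene. LYPLA1 had 95.8 and 96.4 CPM against 89.3 and 92.4 CPM (log2 change -0.08, 95% interval -0.31 to 0.14; adjusted p = 0.566). In FPKM, which allows the pair to be compared, LYPLA1 exceeded LYPLA2 in shCON (36.4 and 36.7 against 25.5 and 23.5) and was below it in shMAGED2 replicate 1 and 2 (31.5 and 35.0 against 34.4 and 38.8).

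The ABHD17 enzymes, which release palmitate from NRAS and PSD-95, did not pass. ABHD17A had 52.2 and 52.9 CPM in shCON and 56.6 and 55.7 CPM in shMAGED2 (log2 change 0.10, 95% interval -0.15 to 0.34). ABHD17B (22.3 and 17.6 CPM against 15.0 and 20.3) and ABHD17C (10.4 and 9.34 CPM against 9.58 and 12.8) overlapped between the groups. PPT2, the second lysosomal enzyme, was low at 6.33 and 4.67 CPM against 5.16 and 5.50 CPM (log2 change -0.05, 95% interval -0.65 to 0.56). Of its exonic bases 49.3% belong also to the readthrough gene PPT2-EGFL8, so its value is uncertain.

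For 10 of the 22 genes that did not pass, the 95% interval lay within a 1.5-fold change in either direction, and for 19 it lay within 2-fold. The 3 whose interval reached 2-fold were ZDHHC11, ZDHHC14 and GOLGA7. An unadjusted p under 0.05 was found for 10 of the 28 (38.0% of all genes), the 6 called ones and ZDHHC6, ZDHHC8, ZDHHC13 and GOLGA7.

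**Figure D4:**
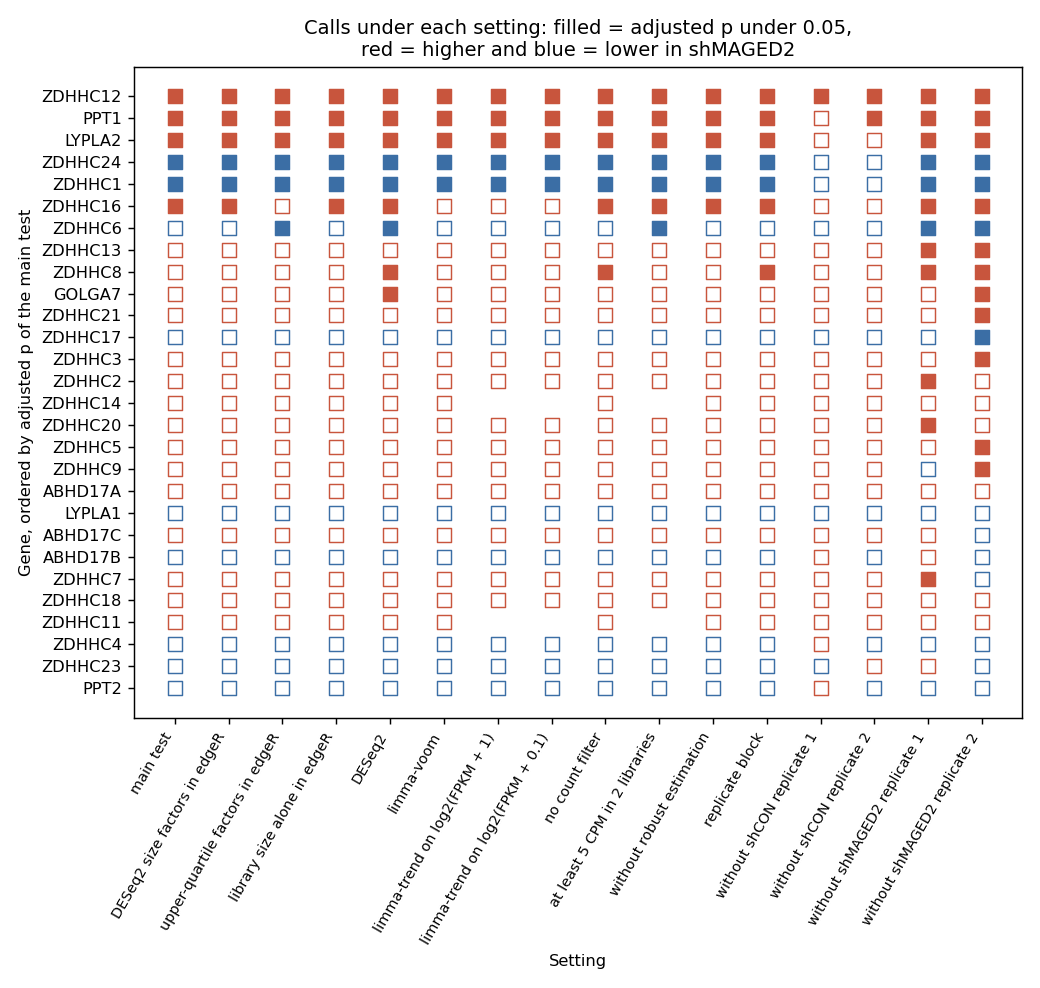
Calls of the 28 genes (vertical axis) in the main test and the 15 alternative fits (horizontal axis); filled squares have an adjusted p under 0.05, red is higher and blue lower in shMAGED2, and a gap means that the gene was not tested. ZDHHC12 is filled in every column, and the columns that leave out a shCON library hold 1 and 2 filled squares.

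Summed over the 23 transferases, the deposited values came to 277 and 275 FPKM in shCON and 317 and 313 FPKM in shMAGED2. The 7 thioesterases summed to 143 and 141 FPKM against 158 and 179 FPKM. Both sums were higher in the knockdown libraries, and so was the sum over all genes of the table, at 390865 and 387227 against 439676 and 407508 FPKM, so these sums are given as values only.

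The supply of the palmitoyl-CoA that the transferases use was also examined, with a list of 17 genes of which 15 were tested. In it 7 fell and 2 rose (60% called, against 23.9% of all genes), with a median log2 change of -0.37 against 0.00284 over all genes. The list was chosen with earlier results of these data known, so this share is not independent of them and is given as a value only. ACSL1, which activates long-chain fatty acids to their CoA esters, had 272 and 280 CPM in shCON and 94.8 and 119.7 CPM in shMAGED2, well below the controls (log2 change -1.36, SE 0.13; edgeR adjusted p = 0.002). Its relatives ACSL3 (-0.84, SE 0.09) and ACSL4 (-0.55, SE 0.09) and the synthase FASN (-0.73, SE 0.09), which makes palmitate, fell as well. The fatty acid transporter SLC27A4 rose from 46.3 and 40.6 CPM to 91.2 and 90.6 CPM (1.07, SE 0.11), and the fatty acid-binding protein FABP5 also rose (1.15, SE 0.20). SLC27A1, a transporter related to SLC27A4, fell from 52.8 and 55.5 CPM to 35.4 and 31.9 CPM (-0.69, SE 0.12).

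Other lipid modifications of proteins were represented by 24 genes, 22 of them tested, among which 3 rose and 2 fell (22.7%, near the 23.9% of all genes; median 0.09). ICMT, which methylates prenylated proteins such as RAS, rose (0.73, SE 0.15), as did PIGU (0.98, SE 0.19) and PIGK (0.55, SE 0.11), subunits of the transamidase that attaches glycosylphosphatidylinositol anchors. PIGA, which starts the synthesis of that anchor, fell (-1.03, SE 0.12), and so did RABGGTB, a subunit of the enzyme that prenylates RAB proteins (-0.66, SE 0.17).

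Of 59 genes for proteins known to be palmitoylated, 58 were tested, and 11 rose and 6 fell (29.3%, against 23.9% of all genes; median 0.10, against 0.00284). The endoplasmic reticulum chaperone calnexin (CANX), a substrate of ZDHHC6, fell from 1553 ± 40 to 821 ± 17 CPM (SD, n = 2; log2 change -0.92, SE 0.09). FYN, a substrate of ZDHHC21, fell (-0.55, SE 0.10), as did the membrane fusion protein SNAP23 (-0.72, SE 0.14) and the tetraspanin CD82 (-0.74, SE 0.19). Higher in the knockdown were beta-tubulin TUBB (0.85, SE 0.10), the receptor kinase inhibitor SPRY2 (0.78, SE 0.09), the lipid raft protein FLOT2 (0.68, SE 0.09) and the kinase LYN (1.36, SE 0.27). All 4 lists of related genes were chosen with earlier results of these data known, so their shares are given as values only. With at least 5 CPM in 2 libraries required, 37.6% of the related genes tested passed, against 30.9% of all genes. Of the 102 genes tested in the 4 lists with the main filter, 33 passed with all libraries (32.4%, against 23.9% of all genes). Without shCON replicate 1, 5 passed (4.90%, against 6.96%), and without shCON replicate 2, 11 did (10.8%, against 7.97%). Without shMAGED2 replicate 1, 58 passed (56.9%, against 41.1%), and without shMAGED2 replicate 2, 63 did (61.8%, against 47.0%).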

How the data were processed

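RNA sequencing was done on 4 U87-MG libraries, assigned to group and replicate by their titles, with columns matched by the sample descriptions. The deposited table of counts holds whole-number counts per gene, not normalised, made by the authors. The submitters' processing notes name hg38 and the tools SAMtools, HISAT2 and StringTie, with no role for each. The authors' FPKM values, deposited in a table of their own, are scaled by gene length and by library; the lengths, the annotation and the strand setting are not given in the sources used.

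Counts were tested in edgeR 4.0.16 (R 4.3.3): filterByExpr by group, TMM scaling (factors 0.945 to 1.02) and a robust quasi-likelihood fit with group as its only term, two-sided, adjusted by Benjamini-Hochberg over 15293 genes (threshold 0.05; 2 residual degrees of freedom). Standard errors come from the F statistic, and 95% intervals use the fit's degrees of freedom. CPM values use the TMM-scaled totals over the genes kept by the filter. Totals over all genes ran from 28673774 to 36234336 counts before scaling. Limits for counts of 0 use the unscaled totals and cover counting error only. The test was also run on simulated data with known changes and equal dispersion in both groups. That run does not cover the unequal spread of the replicates here.

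Alternatives were other scalings, DESeq2 1.42.0, limma 3.58.1 (voom, and trend on log2(FPKM + 1) and log2(FPKM + 0.1) for genes with at least 1 FPKM in 2 libraries), other filters, non-robust estimation, a fit with replicate number as a block, and fits leaving out each library. With a pseudocount, log2 FPKM changes of low genes come out too small. Positions and coding DNA come from GENCODE 29 (principal transcript), and promoters from RefSeq. The naming rule took all 31 genes, MAGED2 and, of each of 4 related lists, up to 4 genes per direction with the smallest p among those past the threshold. CAP1, BBS1 and PKN3 were added for their exon overlap, ZDHHC11B and PPT2-EGFL8 as copies, and SLC27A1 as a relative of SLC27A4. The members and lists were chosen with earlier results of these data known.

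The marker lists were written only to check the cell line label, and 1 marker is not reported here. Chi-square per degree of freedom between the replicates was 7.42 for shCON and 89.5 for shMAGED2, both above the sampling noise. Each library was counted once. The spread was thus wider in shMAGED2, whereas the edgeR fit took the same dispersion for both groups. How this acts on the adjusted p-values was not tested.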

Additional observations from a re-analysis of the deposited data

How the results depend on the processing

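Under the 11 alternatives that kept all libraries, the counts of members that rose (3 to 6), fell (2 or 3) or changed in either direction (5 to 9) stayed within 1.5 times the main counts. With each library left out in turn, the members that rose numbered 1 to 11, those that fell 0 to 4, those called in either direction 1 to 15, those among all genes tested 1100 to 7447, and related genes 5 to 63. MAGED2 passed in all 15 alternatives (log2 change -3.31 to -3.03). Of the members' values under alternatives, 370 kept direction and side of the threshold, 22 newly passed and 13 no longer passed. The 9 that changed sign, all of genes that had not passed, all came from leaving out a library. Over those fits the log2 change ran from -0.19 to 0.049 for ZDHHC4, -0.062 to 0.25 for ZDHHC7, -0.10 to 0.40 for ZDHHC9, -0.21 to 0.15 for ZDHHC23, -0.42 to 0.025 for ABHD17B, -0.045 to 0.38 for ABHD17C and -0.25 to 0.19 for PPT2. The cause was not tested.

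Replicate numbers are shared between the groups, but nothing in the labels says that they pair libraries, and the differences between replicate 1 and 2 correlated at -0.018 between the groups, across genes. With a replicate block 3336 genes and 7 members (5 that rose and 2 that fell) passed, ZDHHC8 being the added one (adjusted p 0.0441). Depth limits ZDHHC11, ZDHHC14 and the 3 genes at 0 counts.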
